A study of Homo sapiens with 10 samples.

Results

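Distal H3K27ac regions found in MDA-MB-453 cells and not in SKBR3 cells are described here. H3K27ac peak lists of both HER2 breast cancer lines were merged across libraries, and a region was a member where all 4 MDA-MB-453 lists and no SKBR3 list held a peak and no annotated transcription start site (TSS) lay within 1 kb. Members were therefore chosen by presence in the lists, and their absence from SKBR3 is a selection criterion and not a result. Of 76044 merged regions, 7998 (10.5%) met the presence criteria, 1149 of these lay within 1 kb of a TSS, and 6849 were members. SKBR3-specific distal regions, chosen by the mirror rule, numbered 9156, and 7580 distal regions were held by all 8 lists. All distal regions together numbered 58927.

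MDA-MB-453 and SKBR3 are established lines, each without an engineered allele in the labels. Each line had 2 untreated libraries and 2 libraries of cells given TWEAK at 10 ng/ml for 48 h, renewed at 24 h, after 8 h of serum starvation. No peak list was analysed for the 2 input samples. Replicates, which the methods call biological, are libraries of a single line, so the spread between them is not that of tumours.

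H3K27ac is acetylation of lysine 27 of histone H3 by the coactivators CBP and p300, and it is laid down at active promoters and enhancers. Promoter acetylation is largely shared between cell types, whereas enhancer acetylation differs strongly between them, because enhancers are opened by the transcription factors that a cell expresses. In luminal breast cells these are forkhead, GATA, AP-2 and steroid receptor proteins. MDA-MB-453 is known as a HER2 line with apocrine features. TWEAK, a cytokine of the TNF family, binds the receptor Fn14 and activates NF-κB.

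Sequence of 6 members is printed to show the DNA words counted below, on the plus strand of hg38 and 100 bases each, with the match in capitals. The first 3 are the strongest members with a steroid receptor element, a word that the glucocorticoid receptor shares with related receptors, which is GNACA and TGTNC with 3 bases between them. They lie in introns of SMOC2 (chr6:168527147-168527246) and TPPP (chr5:672105-672204) and between genes near RPL10L (chr14:46691572-46691671). The next 2, in introns of ANKRD30A (chr10:37181816-37181915) and KAZN (chr1:14498945-14499044), hold the forkhead word TGTTTAC or its complement. The last, in an intron of MAST4 (chr5:66644731-66644830), holds the GATA word AGATAAG.
SMOC2: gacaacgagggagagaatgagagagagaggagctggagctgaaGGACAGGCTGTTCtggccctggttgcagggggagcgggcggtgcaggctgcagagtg
TPPP: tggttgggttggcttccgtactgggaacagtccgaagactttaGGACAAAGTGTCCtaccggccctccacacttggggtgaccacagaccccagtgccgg
RPL10L: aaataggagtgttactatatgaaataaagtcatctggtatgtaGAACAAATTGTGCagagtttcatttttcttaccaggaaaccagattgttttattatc
ANKRD30A: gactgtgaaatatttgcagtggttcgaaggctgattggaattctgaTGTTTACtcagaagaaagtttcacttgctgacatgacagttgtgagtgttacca
KAZN: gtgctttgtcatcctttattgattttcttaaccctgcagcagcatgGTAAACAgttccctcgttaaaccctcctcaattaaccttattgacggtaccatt
MAST4: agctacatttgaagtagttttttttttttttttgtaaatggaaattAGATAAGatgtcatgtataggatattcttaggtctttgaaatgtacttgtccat

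Marker genes of the lines and of other cell types were read at promoters. ERBB2, the gene of HER2, FOXA1, the forkhead factor of luminal cells, SPDEF, the keratin genes KRT8, KRT18 and KRT19, and EPCAM had a promoter peak in all 8 lists. Of 10 marker genes of other cell types, 8 had no promoter peak in any list, among them PTPRC of leukocytes, PECAM1 of endothelium and the basal keratins KRT5 and KRT14. CDH5 and COL1A1 had a promoter peak in all 8 lists. None of these markers differed between the lines, so they cannot tell the line labels apart. MDA-MB-453 lists held 36148 to 37813 peaks and SKBR3 lists 43684 to 51687, and read depth is unknown.

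Members took 6907 and 6933 peaks in the untreated libraries and 6930 and 6929 in the TWEAK libraries, between 18.3% and 19.1% of a list. The rule required a peak for each of the 6849 members in every MDA-MB-453 list. These peak counts were therefore largely set by selection, and their likeness across libraries is not a result. The length members covered was between 13.2% and 13.3% of all covered sequence, so their peaks were narrower than the average peak of a list. As a merged region the median member spanned 1424 bp, against 2018 bp for SKBR3-specific distal regions and 3294 bp for distal regions in all 8 lists. Of members 8.22% were wider than 3 kb, against 55.7% of distal regions in all 8 lists. Regions in all 8 lists join peaks of both lines, and members join peaks of MDA-MB-453 alone. Merging by itself widens the former, so their spans cannot show whether member peaks were narrower than shared ones.

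The strength of a member was read as a percentile, the rank of its strongest peak by the authors' fold enrichment within that library's own list, where 100 is the strongest peak. Where 4 values are given they are untreated replicates 1 and 2 and then TWEAK replicates 1 and 2. The median was 35.0 and 37.9 in untreated and 37.1 and 35.1 in TWEAK libraries. In the same libraries the median over distal regions in all 8 lists lay between 57.7 and 59.6. The median fold enrichment of members was 3.89, 3.99, 3.92 and 3.90. Most members were thus modest peaks: 63.6% lay below the 50th percentile in all 4 libraries and 1372 members lay above it in all 4. The libraries ranked members alike, with a median SD of 5.98 percentile points over the 4 libraries, and 1 member ranged over more than 50 points. Members just inside and outside the rule were alike in strength where the TSS limit set them apart, with a median percentile of 31.2 for 123 members 1000 to 1500 bp from a TSS and 31.4 for 99 regions of the same lists 500 to 1000 bp away. Distal regions in 3 of 4 MDA-MB-453 lists and no SKBR3 list numbered 1529, at a median percentile of 14.5.

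**Figure D1:**
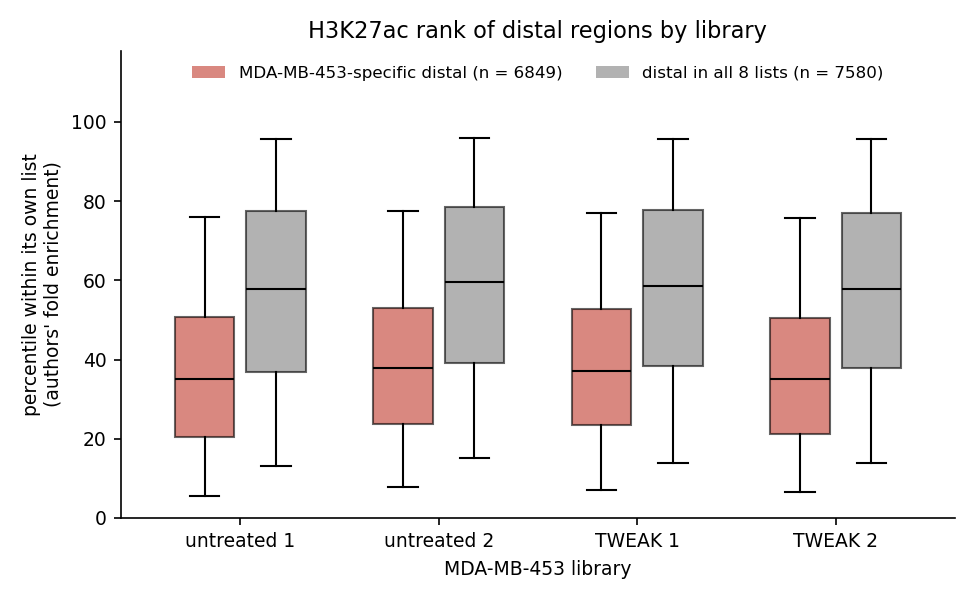
Percentile of each region's strongest peak within its own list (y axis) in the 4 MDA-MB-453 libraries (x axis), for 6849 members (red) and 7580 distal regions in all 8 lists (grey). Boxes run from the 25th to the 75th percentile of regions with the median as a line, and whiskers from the 5th to the 95th. The members' medians, 35.0 to 37.9, lie below those of the shared regions, 57.7 to 59.6, in every library.

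A small group of members ranked with the strongest peaks of the line, and 78 (1.14%) had a mean percentile above 90. The highest lay in an intron of TTC12, a factor for assembling ciliary dynein arms, at chr11:113336949-113344575, with percentiles of 99.8, 99.8, 99.8 and 99.8. Its fold enrichment was 42.0 and 39.8 in untreated and 38.6 and 34.0 in TWEAK libraries. The next, 12.1 kb wide, lay 4.72 kb from the TSS of PIM3, a serine/threonine kinase gene, and ranked at 98.9, 99.7, 99.8 and 99.0. The widest of all members spanned 46.0 kb inside ANKRD30A, which encodes the breast differentiation antigen NY-BR-1, at chr10:37159032-37205010, and ranked at 99.4, 98.8, 99.0 and 99.4. That region held 19 matches of TGTTTAC, counted on both strands, of which the printed ANKRD30A sequence shows 1. No ANKRD30A promoter peak was in any list. All 4 libraries placed each of these members in the top few percent of their list, and no percentiles separated by treatment.

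The other members of the top 10 by mean percentile lay near FMO4, a flavin monooxygenase gene (99.1), TMEM45B (98.8), SIPA1L2, which encodes a Rap GTPase activating protein (98.8), KAZN, which encodes the cell junction protein kazrin (98.5), FRG1 (98.1), the microtubule-associated kinase gene MAST4 (97.7) and PAX7, a transcription factor gene of muscle stem cells (97.5). KAZN, MAST4 and PAX7 held their member in an intron, and those near FMO4, TMEM45B and SIPA1L2 lay outside genes. Of the 3 strongest members with a receptor element, the SMOC2 intron ranked at 91.6, 89.4, 88.0 and 88.6, the TPPP intron at 86.2, 86.4, 86.6 and 84.0, and the region near RPL10L at 85.3, 81.6, 88.3 and 85.0. SMOC2 encodes a secreted matrix protein and TPPP a tubulin polymerisation protein.

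Members lay far from protein-coding TSS. Their median distance to the nearest protein-coding TSS was 77.1 kb, against 32.2 kb for SKBR3-specific distal regions, 35.5 kb for distal regions in all 8 lists and 37.5 kb for all distal regions. To a TSS of any gene class, as in the rule, the gap was smaller. Those medians were 22.1 kb for members and, in the same order, 13.9, 14.9 and 15.2 kb. More than 100 kb separated 2970 members (43.4%) from any protein-coding TSS, against 20.5% of SKBR3-specific regions and 22.6% of those in all 8 lists. Introns of protein-coding genes held 43.5% of members (95% Wilson interval 42.3% to 44.7%), exons 2.18%, lncRNA genes alone 15.7% and sequence outside both 38.6%. For SKBR3-specific regions the intron share was 53.4% (52.4% to 54.4%) and the lncRNA share 10.3%. Regions taken from shared libraries do not replicate a condition, and no test was made of the differences between sets.

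The remoteness held for weak and strong members. In the 4 bands of mean percentile from 0 to 25, 25 to 50, 50 to 75 and 75 to 100 the median distance was 73.2, 77.1, 84.0 and 69.6 kb. In the same bands it was between 28.2 and 35.7 kb for SKBR3-specific regions and between 29.6 and 36.8 kb for regions in all 8 lists. The median of every member band lay above the range of band medians in the other sets. The distances themselves overlapped, and the 25th percentile over all members was 25.7 kb. The 75th was 80.0 kb for SKBR3-specific regions and 89.8 kb for regions in all 8 lists. Base composition moved with distance, and within bands of GC content members were still the more remote: below 40% GC the medians were 108 kb for members and 48.5 kb for SKBR3-specific regions, and at 50% GC or more 35.9 and 23.1 kb.

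**Figure D2:**
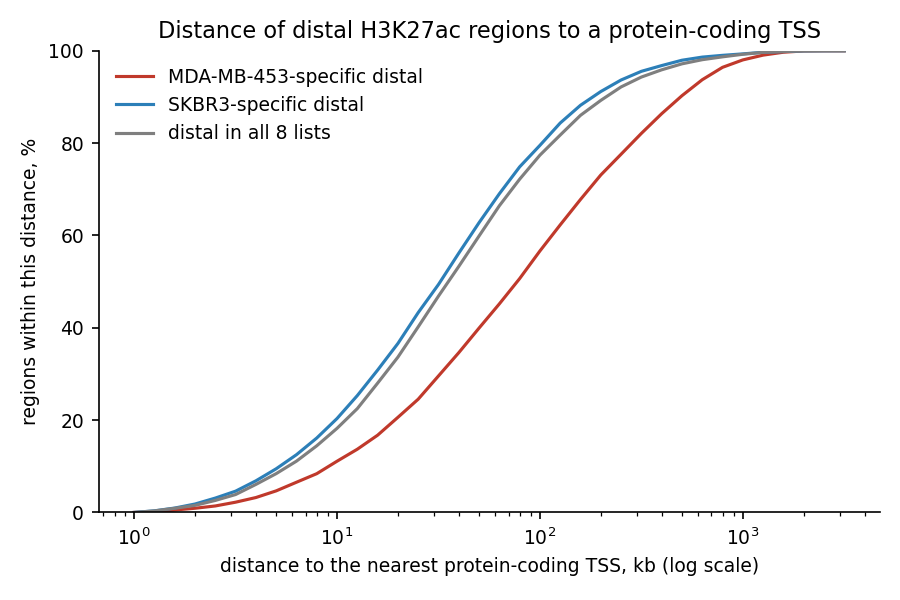
Percent of distal regions (y axis) whose nearer edge lies within a given distance of a protein-coding TSS (x axis, kb, log scale), for members (red), SKBR3-specific distal regions (blue) and distal regions in all 8 lists (grey). The members' curve lies to the right, and 43.4% of members are more than 100 kb away against 20.5% and 22.6%.

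Genes were assigned to members by the nearest protein-coding TSS, which does not show which gene a region acts on. At least 1 member was nearest to 3348 of 19609 protein-coding genes (17.1%), and 51 genes had 10 or more. SIPA1L2 had most, with 26 members over 544 kb at percentiles of 9.54 to 98.8, and 0 SKBR3-specific regions. TBX3, a T-box factor of mammary gland development, had 20 members between 14.4 and 784 kb away, and 2 SKBR3-specific regions. DHX35, a helicase gene, and LRP1B, a gene of the LDL receptor family, had 17 each. All 17 at LRP1B lay inside the gene. CDH11, a mesenchymal cadherin gene, and RORA, a nuclear receptor gene, had 16 each, the kinase gene MAST4 15 and ANKRD30A 14. BEND5 and the kinase gene DCLK1 followed with 13, a count shared by 9 further genes.

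Whether the promoter of the nearest gene was acetylated differed among these genes. SIPA1L2, LRP1B and RORA had a promoter peak in all 4 MDA-MB-453 lists and 0 SKBR3 lists. TBX3, DHX35 and MAST4 had one in all 8 lists, and CDH11, ANKRD30A and BEND5 in none. Of the 51 genes with 10 or more members, 29 had a promoter peak in all 4 MDA-MB-453 lists, 11 of these in no SKBR3 list, and 18 had none in MDA-MB-453. Across all members, the nearest protein-coding promoter was in all 8 lists for 44.3%, in no list for 31.7%, and in all 4 MDA-MB-453 lists and no SKBR3 list for 698 members (10.2%). That last class held 1.91% of SKBR3-specific distal regions, 3.64% of distal regions in all 8 lists and 3.25% of all protein-coding genes. The mirror class, promoters acetylated in SKBR3 alone by the same rule, was nearest to 6.76% of SKBR3-specific regions, 1.68% of members and 2.79% of protein-coding genes. Members and promoters were selected or classed from the same lists, so this is a description.

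Of 36 apocrine genes, 9 had a nearest member. The prolactin receptor gene PRLR had 4 members, at percentiles of up to 25.9. ALCAM, an adhesion molecule gene, FKBP5, a chaperone gene induced by steroid receptors, and ZBTB16, a zinc finger factor gene, had 2 each, and ABCC11, a transporter gene of apocrine glands, had 1. FOXA1, SPDEF, XBP1 and 24 other genes of that list had none.

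Among luminal transcription factor genes 12 of 24 had a nearest member, 58 in all. Beside TBX3, GATA3 had 10 members, all 87.0 kb or more away, TFAP2B, which encodes an AP-2 protein, 8, and TRPS1, a repressor of the GATA family, 7. The transcription factor genes MYB and TFAP2A had 3 each. GATA3 and TRPS1 also had 5 SKBR3-specific regions each. Their promoters were acetylated in all 8 lists. Most of these members were remote, and 12 of the 58 lay within 100 kb of the TSS.

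Of 24 ERBB and FGF receptor and ligand genes 10 had a member, 37 in all. NRG3, a ligand of ERBB4, had 13 members and a promoter peak in all 4 MDA-MB-453 and 0 SKBR3 lists. ERBB4, a receptor of the HER2 family, had 10 members between 283 and 947 kb from its TSS and no promoter peak in any list. The strongest, in an ERBB4 intron at chr2:211956815-211959471, ranked at 75.6, 80.4, 81.8 and 76.7. FGF10 had 5 members, BTC, an EGF receptor ligand gene, 3, and AREG and FGF1 1 each. ERBB2, ERBB3 and EGFR had 0.

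Of 26 basal and mesenchymal genes 5 had a member. They were the N-cadherin gene CDH2 with 6, the integrin gene ITGA6 with 6, the basal factor gene TP63 with 5, the fibronectin gene FN1 with 2 and the P-cadherin gene CDH3 with 1. ITGA6 and CDH3 had promoter peaks in all 4 MDA-MB-453 lists and 0 SKBR3 lists, and CDH2 and FN1 in none. Of 31 TWEAK and NF-κB genes 8 had a member, 17 in all. CD83 had 7, all at least 197 kb away, NFKB1 3, TNFAIP3, which encodes the NF-κB inhibitor A20, 2, and the chemokine and cytokine genes CXCL8 and IL6 and NAMPT, an enzyme gene of NAD synthesis, 1 each. Genes with a nearest member made up at least 19.2% (5 of 26) and at most 12 of 24 genes of a list, and 17.1% of all protein-coding genes. SKBR3-specific regions were nearest to more genes of every list, from 7 of 26 to 18 of 24. Over all protein-coding genes they were nearest to 4972 of 19609, so these shares are not particular to members. The part that the size of a gene's surroundings has in these counts was not tested.

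Members were mostly scattered. When members up to 10 kb apart were joined, 5380 (78.6%) stood alone, 97 groups held 3 or more members and 3 held 5 or more. The largest group had 7 members over 46.4 kb at chr16:68754526-68800952, inside CDH1, the E-cadherin gene, with TANGO6 the nearest TSS for some of them. It lay in a stretch of 304 kb that held 10 members and 2 MDA-MB-453 promoter regions and no peak of any SKBR3 list. The next groups were 6 members at ADCY2, an adenylyl cyclase gene, and CFAP90, and 5 near TDRD15. A further 11 groups held 4 members, and those at ARHGAP6 with AMELX and at LRP1B covered the most bases of these. The strongest member of the ADCY2 group had a mean percentile of 96.3 and the weakest of 10.3.

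SKBR3 peaks were often close by. The median member lay 24.9 kb from the nearest SKBR3 peak, 30.6% lay within 10 kb and 22.8% were more than 100 kb away. Stretches with no SKBR3 peak and at least 5 members numbered 151 and held 1042 members (15.2%). Those with most members, 18 each, lay at NRG3 and GHITM, over 1396 kb of chromosome 10, and at SIPA1L2 and DISC1, over 587 kb of chromosome 1. In a peak list, DNA that SKBR3 lacks and DNA that it carries without the mark look the same and cannot be told apart.

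The share of distal MDA-MB-453 regions with no SKBR3 peak varied by chromosome. It was 38.7% over all chromosomes (6849 of 17676 distal regions in all 4 MDA-MB-453 lists), highest on X (55.0%), 18 (51.8%) and 8 (46.0%), and lowest on 19 (70 of 304), 22 (26.6%) and 17 (27.9%). Chromosome 17, which carries ERBB2, was thus among the lowest. The gene-dense chromosomes 19, 22 and 17 had the fewest members by this measure. DNA copy number of the lines was not used, and its part in these shares was not tested.

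**Figure D3:**
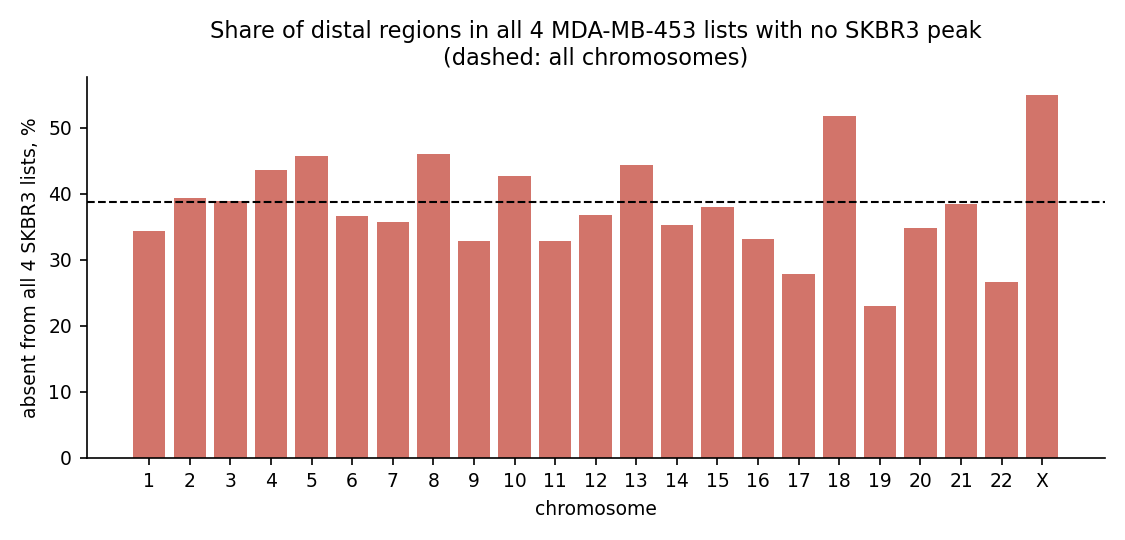
Percent of distal regions in all 4 MDA-MB-453 lists that were in no SKBR3 list (y axis, from 0) for each chromosome (x axis), with the share over all chromosomes, 38.7%, as a dashed line. The bars are highest on X, 18 and 8 and lowest on 19, 22 and 17.

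Sequence in the central 1000 bp of members was AT-rich. The median GC content was 40.7%, against 45.6% for SKBR3-specific distal regions, 44.5% for distal regions in all 8 lists and 43.6% for all distal regions. The 1713 strongest members had a median of 41.8% and the 1713 weakest 39.8%. Motif shares were therefore set beside the share of regions holding the same letters in reverse order, which has the same composition. For some motifs, shares within bands of GC content are given too. Motifs were searched on both strands, and a match is a word in the sequence and not a bound factor.

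The forkhead word TGTTTAC, as in the KAZN and ANKRD30A sequences, was in 26.6% of members (1822 of 6849, 95% Wilson interval 25.6% to 27.7%), 17.7% of SKBR3-specific regions (17.0% to 18.5%), 22.1% of regions in all 8 lists and 20.4% of all distal regions. Its letters in reverse order were in 26.2% of members, so the word was about as frequent as its composition control. The member share stayed above the SKBR3-specific share in each GC band, at 31.8% (30.2% to 33.5%) against 26.9% (24.9% to 29.1%) below 40% GC and 19.5% (17.2% to 22.1%) against 14.8% (13.5% to 16.3%) from 45% to 50%. At 50% GC or more the intervals overlapped, at 14.4% (11.9% to 17.4%) against 11.3% (10.2% to 12.7%). Between members and distal regions in all 8 lists the intervals overlapped in all 4 GC bands, as below 40% GC, where the shared regions had 30.4% (28.3% to 32.6%).

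The GATA word AGATAAG, shown in the MAST4 sequence, was in 17.7% of members (16.8% to 18.6%), 10.2% of SKBR3-specific regions (9.64% to 10.9%), 12.6% of regions in all 8 lists and 13.0% of all distal regions. Reversed letters gave 14.8% in members and 9.22% in SKBR3-specific regions, so the word exceeded its control by 1.19 and 1.11 times. In the band from 40% to 45% GC its share was 19.3% (17.7% to 21.0%) in members, 11.6% (10.4% to 12.9%) in SKBR3-specific regions and 15.1% (13.7% to 16.6%) in regions in all 8 lists. Below 40% GC the intervals of members and regions in all 8 lists overlapped, at 18.5% (17.2% to 19.9%) against 15.5% (13.9% to 17.3%). They also overlapped at 50% GC or more, and not from 45% to 50%. A forkhead or a GATA word was in 39.5% of members and 26.1% of SKBR3-specific regions.

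The AP-1 word TGAGTCA went the other way. It was in 21.1% of members (20.1% to 22.1%), 27.8% of SKBR3-specific regions (26.9% to 28.8%), 24.9% of regions in all 8 lists and 25.3% of all distal regions. It exceeded its reversed letters by 1.34 times in members and by 1.90 times in SKBR3-specific regions. Below 40% GC the shares were 20.5% and 27.5%. The strongest members held it least often, at 16.4% of those above the 75th percentile against 22.6% of those below the 25th. The TEAD word CATTCCA was in 19.4% of members (18.5% to 20.3%) and 25.2% of SKBR3-specific regions, 2.91 and 4.36 times its reversed letters. It was in 20.5% of regions in all 8 lists (19.6% to 21.4%) and 21.5% of all distal regions. The intervals of members and regions in all 8 lists overlapped, so a lower TEAD share was not particular to members. AP-1 proteins are the dimers of FOS and JUN, and TEAD proteins are the DNA-binding partners of YAP and TAZ.

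The SOX word ACAATGG was in 14.0% of members and 11.0% of SKBR3-specific regions, 1.52 and 1.30 times its reversed letters, and the RUNX word TGTGGTT in 20.9% and 18.5%, 1.54 and 1.56 times. AP-2 words (GCCNNNGGC) were in 20.8% and 28.5%. Within GC bands the AP-2 shares were 11.2% and 11.4% below 40% GC, 20.1% and 19.4% from 40% to 45%, 29.4% and 27.8% from 45% to 50%, and 55.1% and 50.5% at 50% or more. The STAT word TTCCNGGAA was in 3.62% and 3.58%, the ETS word CCGGAAG in 2.57% and 4.59%, the CTCF word CCAGGGGGC in 0.876% and 1.58%, the grainyhead word AACCGGTT in 0.336% and 0.415%, and the NF-κB word GGGANTTTC in 3.84% and 4.65%.

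The steroid receptor element was in 125 members (1.83%, 1.53% to 2.17%), 1.65% of SKBR3-specific regions (1.41% to 1.93%), 1.58% of regions in all 8 lists and 883 of 58927 distal regions in all. Reversed letters gave 1.72% in members. The intervals of these sets overlapped, and no test was made of the differences between them. Of the 125 members 33 (26.4%) also held the forkhead word, close to the 26.6% of all members. The estrogen receptor element, GGTCA and TGACC with 3 bases between them, was in 0 members (upper limit of the interval 0.0561%) and in 11 SKBR3-specific regions (0.120%), and its reversed letters were in 0.219% of members.

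**Figure D4:**
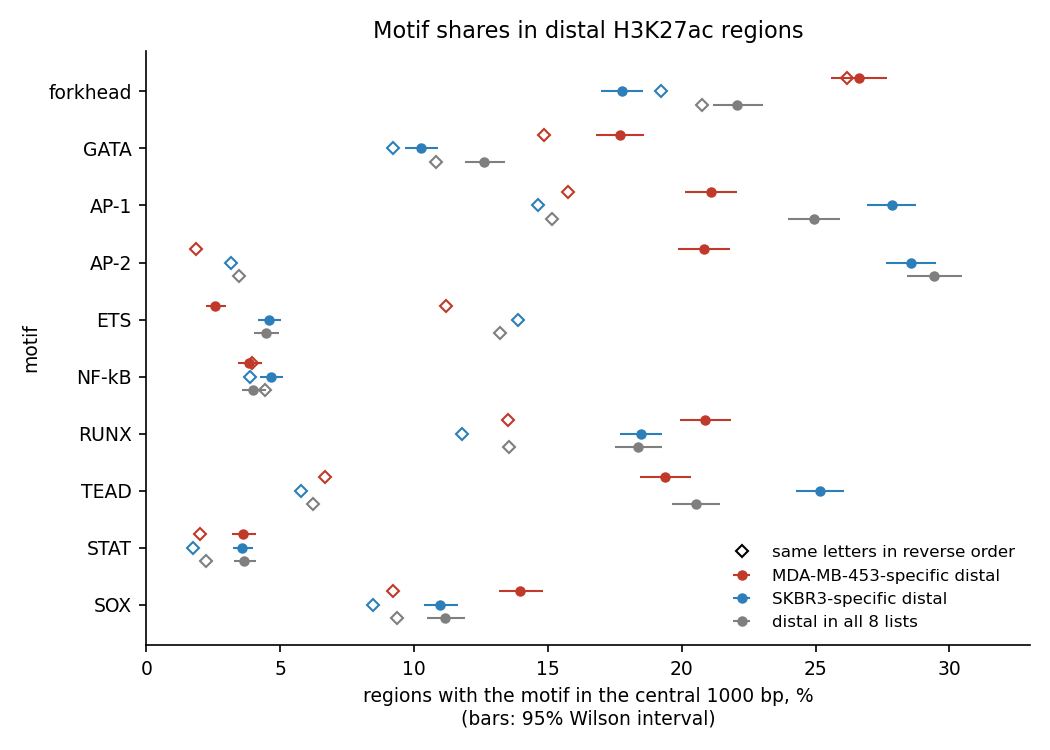
Percent of regions with a motif in the central 1000 bp (x axis; filled circles with 95% Wilson intervals) for motifs in over 2% of all distal regions (y axis), in members (red), SKBR3-specific distal regions (blue) and distal regions in all 8 lists (grey). Open diamonds give the same letters in reverse order. Members have the highest forkhead and GATA shares, 26.6% and 17.7%, and the lowest AP-1 share, 21.1%, and their forkhead share lies on its diamond.

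The remaining question was whether TWEAK altered the acetylation of members, which the rule did not use beyond requiring a peak in both conditions. As a set, members showed no difference larger than the spread between replicates. Covered length was 9.38 and 9.56 Mb in untreated libraries (mean 9.47 ± 0.126, SD, n = 2) and 9.57 and 9.33 Mb in TWEAK libraries (9.45 ± 0.170, SD, n = 2). The difference of -0.0251 Mb was smaller than the spread between replicates (exact two-sided permutation p = 1). The median percentile was 36.4 ± 2.01 (SD, n = 2) without and 36.1 ± 1.46 (SD, n = 2) with TWEAK, a difference of -0.343 points (exact permutation p = 1). With 2 libraries against 2 the smallest p is 0.333. The direction of both differences depended on single libraries, being positive without untreated replicate 2 (0.0642 Mb and 1.08 points) and without TWEAK replicate 2 (0.0948 Mb and 0.691 points).

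Single regions were compared with limma on log2 fold enrichment over 29868 regions, promoters included, that all 4 MDA-MB-453 lists held, with Benjamini-Hochberg adjustment over all of them and calls at an adjusted p under 0.05. With TWEAK 0 members rose (background 0.0301% of all regions, 9 regions) and 6 fell (background 0.177%, 53 regions). At an unadjusted p under 0.05, 287 members (4.19%) were higher and 277 (4.04%) lower, against 3.65% and 5.46% of all regions tested. The median log2 change was 0.01 in members and -0.01 in all regions tested. Both TWEAK values lay above both untreated values in 1413 members (20.6%, background 17.8%) and below them in 1223 (17.9%, background 21.4%). Among the 263 members with the NF-κB word 0 were called, 14 (5.32%) were higher and 13 (4.94%) lower at an unadjusted p under 0.05, against the same 3.65% and 5.46% of all regions, and the median log2 change was -0.02.

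The 6 called members each had both TWEAK values below both untreated values. The largest fall was at chr6:14796722-14798801, in a lncRNA gene 447 kb from the TSS of JARID2, a subunit gene of the Polycomb complex PRC2. It ranked at 64.6 and 64.0 in untreated and 32.9 and 22.3 in TWEAK libraries, a log2 change of -0.92 ± 0.13 (SE, limma adjusted p = 0.00385). The member 25.7 kb from PLAAT1, a phospholipase and acyltransferase gene, at chr3:193213986-193215441, ranked at 65.4 and 60.8 and then 31.4 and 31.5 (log2 change -0.82 ± 0.14, adjusted p = 0.0107). The member in an intron of AIG1, which encodes a fatty acid ester hydrolase, at chr6:143155928-143160545, ranked at 70.4 and 75.1 and then 51.7 and 54.9 (-0.67 ± 0.12, adjusted p = 0.0148).

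The 3 strongest of the 6 fell by less. The member in an intron of GHR, the growth hormone receptor gene, 4.76 kb from its TSS at chr5:42570621-42574966, ranked at 95.4 and 96.1 without and 88.8 and 89.3 with TWEAK (log2 change -0.58 ± 0.09, limma adjusted p = 0.00671). GHR had 12 members and a promoter peak in all 4 MDA-MB-453 and 0 SKBR3 lists. The member in an intron of ABCC8, which encodes the sulfonylurea receptor, at chr11:17438498-17441293, ranked at 88.6, 88.8, 78.0 and 75.5 (-0.60 ± 0.10, adjusted p = 0.00718). The last, at chr20:42073445-42076461, overlapped an exon of PTPRT, a receptor tyrosine phosphatase gene, nearest to the TSS of CHD6, and ranked at 91.9, 92.8, 84.6 and 83.3 (-0.54 ± 0.09, adjusted p = 0.0130). Of the 6, the AP-1 word was in the centre of the PLAAT1 member alone and the NF-κB word in none.

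These calls depended on how a region was measured. When peak width times fold enrichment was summed over a region, 3 members fell and 0 rose, and JARID2 alone of the 6 remained. The changes of the other 5 were larger on that scale and did not pass the test, at -1.23 for PLAAT1 (limma adjusted p = 0.152), -1.03 for AIG1 (0.191), -0.93 for GHR (0.0512), -0.77 for ABCC8 (0.125) and -0.75 for CHD6 (0.323). Leaving out a library raised the count of called members, to 17 without untreated replicate 1, 27 without untreated replicate 2, 22 without TWEAK replicate 1 and 13 without TWEAK replicate 2, with all 6 among them each time and between 2 and 6 rising. As a share this was 0.248%, 0.394%, 0.321% and 0.190% of members, against 0.469%, 0.646%, 0.589% and 0.362% of all regions tested.

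**Figure D5:**
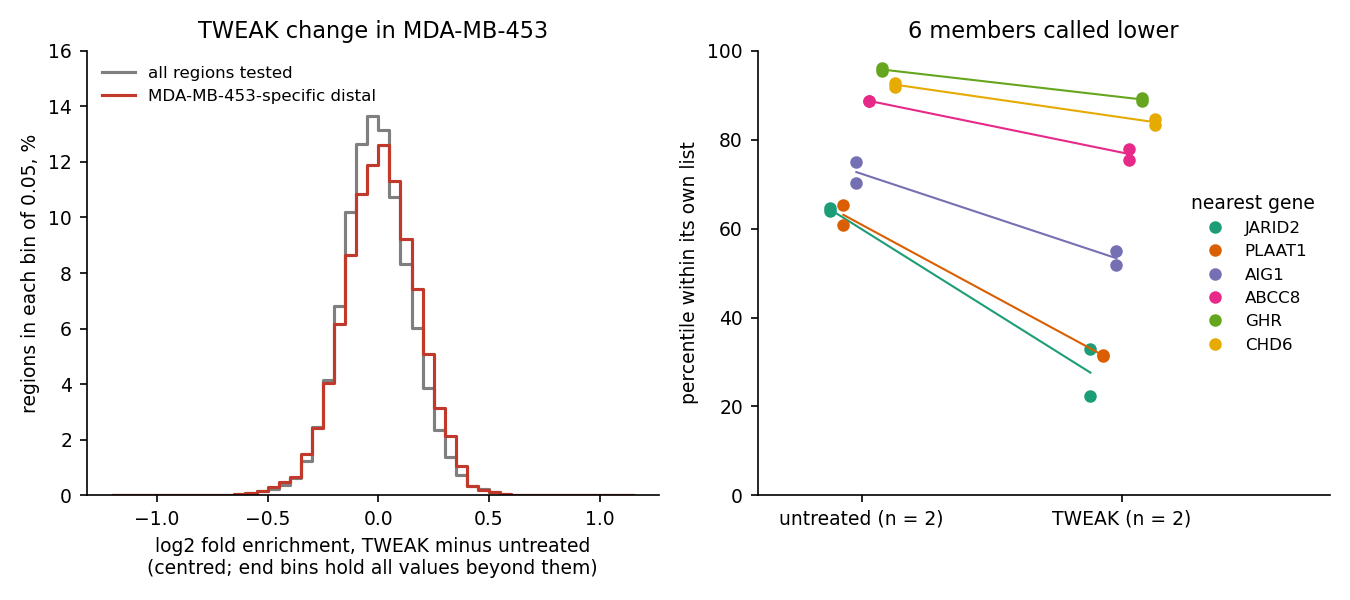
Left, percent of regions (y axis) in bins of the centred log2 change in fold enrichment, TWEAK minus untreated (x axis), for members (red) and all 29868 regions tested (grey), with medians of 0.01 and -0.01. Right, percentile within its own list (y axis) of the 6 called members in 2 untreated and 2 TWEAK libraries (points), with lines between the means. All 6 are lower in both TWEAK libraries.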

How the data were processed

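Per the authors, reads were aligned to hg38 by Bowtie2, and H3K27ac peaks were called with MACS2 library by library, with input signal subtracted. Peaks in blacklisted regions were then removed. The 8 deposited lists have the 9-column layout of MACS2 broad peaks, and other calling options are not given in the sources used here. Each list gives the authors' whole-number score, a fold enrichment ratio over background, and the deposited −log10 p-value and −log10 q-value. The authors' score and −log10 p were not used. Read counts were not used, so depth is unknown, and absence from a list can hide signal slightly below threshold. DiffBind, the study's own tool for comparing signal, requires reads and was not run.

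Peaks of all 8 lists on chromosomes 1 to 22 and X were merged where they shared at least 1 bp. TSS, exons and genes came from the basic set of GENCODE release 44, and 0 of 23 chromosomes had a region past its end in the hg38 reference. A region's value in a library was its strongest peak by the authors' fold enrichment, as a percentile of that list or on the log2 scale. Untreated and TWEAK libraries of MDA-MB-453 were compared by exact two-sided permutation tests over the 6 assignments of 2 of 4 libraries and, per region, with limma 3.58.1 (trend) in R 4.3.3 on median-centred log2 fold enrichment, which was tested on simulated data. The main comparison did not pair libraries by replicate number. Deviations of untreated replicate 1 and TWEAK replicate 1 from their group means had a correlation of -0.02 over the regions tested. The methods call the ChIP-seq replicates biological, and p-values measure the spread between libraries of a single line. Motif words were looked for in the central 1000 bp of each region, on either strand. Shares carry 95% Wilson intervals, which reflect counting error alone.

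Members and gene lists were chosen with earlier results of these data known. Named were the 10 strongest members, the 10 genes nearest to most members, the 5 largest groups of members within 10 kb (ties by covered bases), up to 6 genes of each list, called members, and the 3 strongest members with a receptor element. GHR, GHITM, DISC1 and the genes named at 0 or outside these ranks were chosen after their values were seen. Alternatives were a q-value under 1e-05, lists of equal size, other merging and TSS distances, other scalings and windows, other gene assignments, a block for the replicate number, and leaving out each library. Shares within GC bands were added after seeing the data. Some listed genes are not reported here.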

Additional observations from a re-analysis of the deposited data

How the results depend on the processing

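The number of members was 4069 with peaks of q under 1e-05, and 2302 members overlapped one of these. It was between 6948 and 7572 without any single library. Other merging, distances and lists of equal size kept it within 1.5 times of 6849. The difference between TWEAK and untreated libraries ranged from -0.145 to 0.0948 Mb in covered length and from -1.76 to 1.08 points in median percentile when a library was left out. It kept its sign under every other alternative, with exact p between 0.333 and 1. With the replicate number as a block both differences were the same (-0.0251 Mb and -0.343 points, exact p = 1), and 124 regions and 10 members were called, 1 of these members rising.

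Of all 29868 regions, 62 were called. This was 19 with width times fold enrichment summed, 39 with quantile normalisation, 26 among regions above the median fold enrichment, and 108 to 193 when a library was left out. Called members were 3, 5, 3 and 13 to 27. Without centring 88 regions and 8 members were called. The ratio of forkhead shares, members over all distal regions, was 1.31, and 1.42 in 500 bp, 1.21 in 2000 bp and 1.25 for members that remained with q under 1e-05. For AP-1 it was 0.834, and 0.884 in 2000 bp and 0.754 with q under 1e-05. For the steroid receptor element it was 1.22, and 1.47 in 500 bp. The cause of these shifts was not tested. Among values of single motifs, genes and members, 80 kept their call or stayed within 1.5 times or the counting interval of the value reported, 15 moved and 7 lost their call. Of the 80, the ratio to all distal regions crossed 1 for grainyhead (0.965, then 1.11 in 500 bp and 1.25 with q under 1e-05) and STAT (1.05, then 0.998 with q under 1e-05). Unknown depth limits every statement on absence from a list.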

Other observations

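The longest stretch without an SKBR3 peak that held 5 or more members lay on chromosome 19, from 20238960 to 27635752 (hg38), over 7397 kb that include the centromere. It held 13 members and 24 MDA-MB-453 promoter regions, the most of any such stretch, and the genes nearest to its members were mainly zinc finger genes, among them ZNF91, ZNF100, ZNF254, ZNF486, ZNF675, ZNF730 and ZNF737. Zinc finger genes of this class encode DNA-binding repressors, many of which act on transposable elements. Whether SKBR3 lacks the DNA or only the mark cannot be told apart from peak lists.

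Distal regions held by all 4 MDA-MB-453 lists and exactly 1 SKBR3 list numbered 1199, at a median percentile of 39.5 in MDA-MB-453. The single SKBR3 list was TWEAK replicate 2, the longest of the 4 with 51687 peaks, for 711 of them, untreated replicate 2 for 227, untreated replicate 1 for 167 and TWEAK replicate 1 for 94. Without TWEAK replicate 2 of SKBR3 the number of members was 7572.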
